A study of Mus musculus with 187 samples.

Results

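The subject is nicotinamide nucleotide transhydrogenase (Nnt) and 8 other genes that supply or spend mitochondrial NADPH, read in mouse hearts. The members are given by name, with no threshold on a measured value: Nnt, Idh2, Me3, Glud1, Txnrd2, Txn2, Prdx3, Sod2 and Gpx4. They are 9 genes of the 36558 gene identifiers in the deposited table, and they take up 10 identifiers because Nnt has a pair of them (ENSMUSG00000025453 and ENSMUSG00000116207). The hearts came from the Hybrid Mouse Diversity Panel, a collection of classical inbred and recombinant inbred strains. All mice were fed chow for 8 weeks and then 8 weeks of a diet rich in fat and sucrose, and were 16 weeks old, so no library from a chow-only mouse enters any comparison. The libraries, 98 male and 89 female, covered the panel's strains, of which 78 had both sexes. Each recombinant inbred family is read beside C57BL/6J and a second strain, taken here as its parents. The labels do not give the substrains from which a family was bred. The BXD lines go with DBA/2J, in a set of 26 strains ending in RwwJ and a set of 19 with TyJ in the name. The TyJ set includes BXD24/TyJ-Cep290<rd16>/J, with 1 library, whose label names the rd16 allele of Cep290. The AXB/BXA lines go with A/J (20 strains), the CXB lines with BALB/cJ (6) and the BXH lines with C3H/HeJ (6). C57BL/6J had 3 libraries, each other parent 2, and 24 further inbred strains, with 44 libraries, made up the rest. One library of each sex was usual for a strain, so a strain level rests on 1 or 2 mice, and p-values measure the spread between these libraries.

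Nnt sits in the inner mitochondrial membrane and uses the proton gradient to move hydride from NADH to NADP, giving mitochondrial NADPH. Idh2 (NADP-linked isocitrate dehydrogenase), Me3 (NADP-linked malic enzyme) and Glud1 (glutamate dehydrogenase) are other enzymes of the matrix that can reduce NADP. Txnrd2 passes electrons from NADPH to Txn2, the mitochondrial thioredoxin, which renews Prdx3, the matrix peroxiredoxin that removes hydrogen peroxide. Sod2 makes that peroxide from superoxide, and Gpx4 reduces lipid peroxides with glutathione. C57BL/6J is known to carry a deletion of several Nnt exons that other strains, and other C57BL/6 substrains, lack. The authors' transcript reference was built on C57BL/6J, so reads over exons absent from it could not be counted.

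Nnt lay at chr13:119335448-119408997 on the minus strand (GRCm38). Its identifiers describe the same gene: each of the 3309 stretches of 31 bases in the one transcript of ENSMUSG00000116207 (Nnt-206, 3339 bases, 17 exons) also occurred in ENSMUSG00000025453, where they made up 47.1% of 7019. The split of reads between them was therefore an estimate, and the main measure was their sum. Within ENSMUSG00000025453, Nnt-201 lacks a pair of exons of Nnt-202, at chr13:119374629-119374774 and chr13:119372396-119372591.

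RefSeq promoters (GRCm38.p6, 250 bases before to 50 after the start) were found for 8 of the 9 members, all but Nnt, with 11 promoters in all. They were searched on both strands for 2 sets of letters, TGACNNNGC (core of the antioxidant response element, which Nrf2 binds) and GCGCA followed by any base and GCGC (nuclear respiratory factor 1, a regulator of genes for mitochondrial proteins). The first was in 0 of the 11 promoters, against 12.4% of all 32851 promoters. The second was in 2 overlapping promoters of Gpx4 and in no other member, against 4.60% of all promoters. A match describes letters and not binding. The Gpx4 promoter at chr10:80053315-80053614 (plus strand) is shown for that match, in capitals, and the Prdx3 promoter at chr19:60874489-60874788 (minus strand) because Prdx3 was the member whose strain levels lay closest to those of Nnt; it held neither set of letters.
Gpx4: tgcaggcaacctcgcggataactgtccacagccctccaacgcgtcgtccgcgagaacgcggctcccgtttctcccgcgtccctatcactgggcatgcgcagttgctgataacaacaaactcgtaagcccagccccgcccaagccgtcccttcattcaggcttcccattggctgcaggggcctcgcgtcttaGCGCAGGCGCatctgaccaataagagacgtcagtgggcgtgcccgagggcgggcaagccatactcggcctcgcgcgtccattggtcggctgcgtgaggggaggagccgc
Prdx3: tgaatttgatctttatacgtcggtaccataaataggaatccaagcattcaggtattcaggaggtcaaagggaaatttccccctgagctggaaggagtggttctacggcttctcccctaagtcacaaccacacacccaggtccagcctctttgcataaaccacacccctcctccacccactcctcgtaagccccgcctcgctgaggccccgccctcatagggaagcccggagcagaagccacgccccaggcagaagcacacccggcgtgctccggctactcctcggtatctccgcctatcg

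Libraries held 2.90e+07 to 8.04e+07 estimated counts, and genes of the mitochondrial genome took 20.7 to 61.3% of them. All 7 cardiomyocyte markers had a median above 1 TPM (a library-scaled level per transcript length), and their sum was 19722 to 72351 TPM. Markers of other tissues varied more: the summed level ran from 31.6 to 9466 TPM for 5 atrial markers and from 766 to 76011 TPM for 5 blood markers. In 6 libraries the profile over 15942 genes stood apart, with a correlation to the median profile below 0.958 (median of all 0.978). These were BXD73/RwwJ female, RIIIS/J female, CXB7/ByJ male, BXD9/TyJ male, BXD51/RwwJ female and AXB6/PgnJ male. In each of them short transcripts were raised against long ones (Spearman rho of deviation with transcript length -0.25 to -0.33, against a median of 0.02 in the others, of which 7 also lay below -0.25). Where values rest on these libraries, those without them are given beside; leaving them out was chosen after seeing the data.

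Per transcript length, Idh2 was the most abundant member, with a median of 652 TPM over all libraries, followed by Gpx4 at 498 and Sod2 at 377. Nnt had a median of 183 TPM, Txn2 117.1 and Prdx3 115.4. Me3 and Glud1 were lower, at 44.8 and 40.9 TPM, and Txnrd2, the reductase of the thioredoxin system, was lowest at 7.50. Between libraries the summed Nnt ran 8.71-fold from lowest to highest TPM, against 3.11-fold for Prdx3 and 6.01-fold for Gpx4. Without the libraries that stand apart these ranges were 5.28-fold, 2.73-fold and 2.44-fold.

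All 9 members differed between strains (edgeR quasi-likelihood test over the strains with both sexes, each adjusted p under 0.05), but so did 73.6% of the 15890 genes tested. As a description, summed Nnt had the largest strain effect of the members: its F was 7.57 (adjusted p = 1.2e-16) against a median of 1.97 over all genes. Of the other members the next were Me3 (3.69) and Prdx3 (3.56), and the lowest was Txnrd2 (1.55, adjusted p = 0.035). Alone, ENSMUSG00000025453 had an F of 5.71. ENSMUSG00000116207 had 2.49, below Me3, Prdx3, Idh2 (2.81) and Sod2 (2.51). That fit includes the 6 libraries that stand apart. The SD of this identifier within a strain was 0.50 on a log2 scale with them and 0.21 without. With no filter on low counts Glud1 (adjusted p = 0.11) and Txnrd2 (adjusted p = 0.070) no longer passed. Without the 6 libraries that stand apart the F of Nnt was 14.5. With the length trend of each library as a covariate, also added after seeing the data, 6 of the 8 other members passed, and Gpx4 and Txn2 did not.

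Strain means of Nnt (mean log2 CPM, the count scaled to library size with TMM factors) ran from 8.03 in RIIIS/J to 9.91 in NZB/BlNJ, a 3.68-fold range. The highest strains after NZB/BlNJ were PL/J (9.76), FVB/NJ (9.75) and BXA11/PgnJ (9.72). C57BL/6J stood at 8.41, rank 14 from the lowest, and rank 10 of 103 without the libraries that stand apart. RIIIS/J owed its place to its female library, with 143.5 CPM against 477 in the male, and without it RIIIS/J had rank 38 of 103. The widest step between strains next to each other in this order was 0.15, below the median male to female difference within a strain (0.18), so no neighbouring pair differed beyond that spread.

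Nnt was lower in C57BL/6J than in A/J and BALB/cJ. The C57BL/6J libraries held 355 and 352 CPM in males and 315 CPM in the female. A/J had 674 CPM in the male and 744 CPM in the female, and BALB/cJ had 622 and 719 CPM. These groups did not overlap: the highest C57BL/6J library lay well below the lowest library of either strain. With so few libraries such an order, here and against the other parents, is a description. The share of all genes that show one was not counted. In the fit over the 5 parental strains the log2 difference was -1.05 (SE 0.14, adjusted p = 0.0019) from A/J, where 8.19% of 17162 genes were called, and -0.97 (SE 0.14, adjusted p = 0.0026) from BALB/cJ, where 9.35% were called. In bulk hearts fewer cells of a type and less RNA per cell cannot be told apart.

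Against the parents of the BXD and BXH lines the difference was smaller. DBA/2J held 388 CPM in the male and 491 CPM in the female, and C3H/HeJ held 473 and 402 CPM. All 3 C57BL/6J libraries again lay below these, but the log2 differences of -0.35 (SE 0.14, adjusted p = 0.16) from DBA/2J and -0.35 (SE 0.14, adjusted p = 0.17) from C3H/HeJ did not pass. The background shares called were 10.8% and 9.5%. Both passed when libraries were scaled by their totals (-0.64 and -0.60), a scaling that moved the median of all genes by -0.28 and -0.25.

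The identifier ENSMUSG00000116207 alone was lower in C57BL/6J than in all 4 other parents. Its C57BL/6J libraries held 142.65 and 154.44 CPM in males and 183.95 CPM in the female. The lowest library of the other parents was the DBA/2J male at 220 CPM, and the highest was the BALB/cJ female at 394 CPM. The log2 differences were -0.55 (SE 0.12, adjusted p = 0.017) from DBA/2J, -0.96 (SE 0.12, adjusted p = 0.0012) from A/J, -1.03 (SE 0.12, adjusted p = 0.00066) from BALB/cJ and -0.75 (SE 0.12, adjusted p = 0.0037) from C3H/HeJ. ENSMUSG00000025453 was lower than in A/J (-1.17, adjusted p = 0.012) and BALB/cJ (-0.92, adjusted p = 0.032), with differences of -0.18 from DBA/2J and 0.13 from C3H/HeJ that did not pass. Its call against A/J was lost without the A/J female (adjusted p = 0.13), and that against BALB/cJ without the BALB/cJ male (0.16), the BALB/cJ female (0.12), the C57BL/6J female (0.093) or the second C57BL/6J male (0.077). The call of ENSMUSG00000116207 against DBA/2J was lost without the DBA/2J male (adjusted p = 0.10), the DBA/2J female (0.11) or either C57BL/6J male (0.057 and 0.053), and that against C3H/HeJ without its male (0.067). In a fit over all libraries of the series none of the 4 differences passed (-0.59 to -1.07, adjusted p from 0.080 to 0.46). The share of Nnt counts given to ENSMUSG00000116207 was 47.5% in C57BL/6J, inside the range of 17.5 to 78.8% (median 51.8%) over strains, or of 38.6 to 78.8% without the libraries that stand apart.

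**Figure D1:**
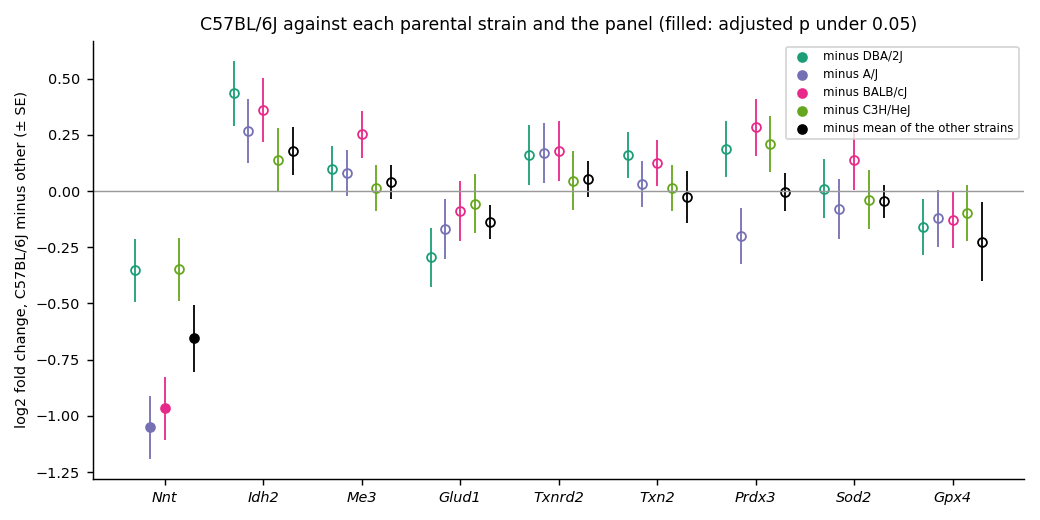
Log2 fold change (vertical axis, with SE) of C57BL/6J minus each of 4 parental strains and minus the mean of the other strains, for the 9 members; filled points passed an adjusted p of 0.05. Nnt is the only member with filled points, at -1.05 (A/J), -0.97 (BALB/cJ) and -0.65 (all strains), while the open Idh2 points lie between 0.14 and 0.44.

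Against the mean of the other strains, C57BL/6J was lower for Nnt by a log2 difference of -0.65 (SE 0.15, adjusted p = 0.0013), or 0.635 of their level. Of the 9 members 1 was called, beside 6.47% of all 15942 genes in either direction and 2.53% lower. Without the libraries that stand apart the Nnt difference was -0.68 (SE 0.11, adjusted p = 6.1e-07). ENSMUSG00000116207 alone differed by -0.79 (SE 0.28, adjusted p = 0.079), and by -0.84 (SE 0.13, adjusted p = 7e-07) without those libraries, which include the lowest values of that identifier.

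No other member of the set was called against the panel or against any other parent. Idh2, the most abundant NADP-linked source, showed log2 differences of 0.44 (SE 0.14, adjusted p = 0.093) from DBA/2J, 0.36 (SE 0.14, adjusted p = 0.17) from BALB/cJ, 0.27 from A/J and 0.14 from C3H/HeJ. Its C57BL/6J libraries held 1170 and 1224 CPM in males and 1015 CPM in the female, against 781 CPM in the DBA/2J male and 909 CPM in the DBA/2J female. Glud1 in C57BL/6J ranged from 75.8 CPM in the female to 113.5 CPM in a male, a spread wider than its mean difference from the panel (-0.14, SE 0.08). A p that misses the threshold with 2 or 3 libraries a strain does not show that these members were alike.

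The wider pathway was read from lists. Of 8 mitochondrial NADPH sources Nnt alone was called in C57BL/6J against the panel, and it was lower, where 6.47% of all genes were called and 2.53% were lower. Of 13 genes of mitochondrial peroxide and thiol defence 1 was lower, Gsr (glutathione reductase, -0.23, SE 0.07, adjusted p = 0.033). Of 5 NAD-linked counterparts 1 was lower, Me2 (NAD-linked malic enzyme, -0.40, SE 0.11, adjusted p = 0.0097), with 5.43 to 5.74 CPM in C57BL/6J libraries. Of 11 cytosolic antioxidants 1 was lower, Glrx (glutaredoxin, -0.58, SE 0.13, adjusted p = 0.00077). None of 7 cytosolic NADPH sources and none of 10 genes of glutathione synthesis and Nrf2 targets was called.

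The contrasts with single parents reuse the C57BL/6J libraries by which Glrx, Me2 and Gsr were singled out, so they describe these genes further and add no separate support. Glrx was lower in C57BL/6J than in each of the 4 other parents. Its C57BL/6J libraries held 16.1 to 19.1 CPM, below the 23.9 to 34.2 CPM of the 8 other parental libraries. The log2 difference ran from -0.49 (adjusted p = 0.041, BALB/cJ) to -0.78 (adjusted p = 0.0042, DBA/2J). Me2 was lower than in A/J, BALB/cJ and C3H/HeJ, and Gsr lower than in A/J and DBA/2J. The calls of Me2 and Gsr against the panel were each lost in 6 of 10 alternatives. Among marker lists 2 of 5 skeletal muscle markers tested, Acta1 and Ckm, were lower in C57BL/6J than in the panel, and none of the cardiomyocyte, atrial, blood, adipose, lymphocyte, endothelial or fibroblast markers was called. Their part in these differences was not tested.

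Within recombinant inbred families Nnt differed between strains in both BXD sets. In the RwwJ set the F of the strain effect was 2.93 (adjusted p = 0.026) over 24 strains, and Nnt was the only member of 9 called, beside 19.7% of all genes. Without the libraries that stand apart it was 6.57 (adjusted p = 7.5e-05), and that of ENSMUSG00000116207 moved from 1.77 (adjusted p = 0.21) to 16.4 (adjusted p = 1.0e-08). In the TyJ set the F was 5.57 (adjusted p = 0.0498) over 10 strains, again Nnt alone, beside 6.1% of all genes, and 7.39 (adjusted p = 0.023) without those libraries. ENSMUSG00000025453 did not pass in either set (adjusted p = 0.47 and 0.11). With library totals or TPM the strain effect on Nnt passed in neither set (adjusted p from 0.09 to 0.24).

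In AXB/BXA the strain effect on Nnt did not pass (F 2.39, adjusted p = 0.11, 13 strains), while 6 of the 8 other members did (Idh2, Me3, Txn2, Prdx3, Sod2, Gpx4), beside 34.8% of all genes. With the length trend as covariate 1 of those 6 remained, Prdx3. With library totals Nnt passed (F 3.21, adjusted p = 0.037) and 2 other members did. The same test called all 5 adipose markers tested, all 4 fibroblast markers, 4 of 5 skeletal muscle markers and 3 of 7 cardiomyocyte markers, and their part in the strain effects was not tested. In CXB, Me3 was the only member called (F 18.7, adjusted p = 0.013, beside 3.49% of all genes). It was low in CXB4/ByJ, with 30.5 CPM in the male and 31.04 CPM in the female, against 53.05 to 66.4 CPM in the other 10 CXB libraries. That call was lost with library totals (adjusted p = 0.37) and in TPM (adjusted p = 0.34 and 0.39). In BXH only BXH6 and BXH8 had both sexes, and no member was called (1.91% of all genes were). There Nnt held 756 and 839 CPM in BXH6/TyJ and 424 and 510 CPM in BXH8/TyJ, a log2 difference of -0.78 (SE 0.19, adjusted p = 0.13), while ENSMUSG00000025453 alone was lower in BXH8 by -1.03 (SE 0.16, adjusted p = 0.025, and 0.088 with no filter on low counts).

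The order of strains within families is a description, since the values themselves set the order. In the TyJ set the widest gap in Nnt strain means was 0.31, with BXD34, BXD40, BXD38 and BXD20 below it (8.26 to 8.37) and 15 strains above. That gap was 0.45 without the libraries that stand apart, wider than the spread within a strain in this set (SD 0.24, also without them). In the RwwJ set the widest gap was 0.12, over levels from 8.08 to 9.12. A narrow gap does not by itself show that levels were continuous. In AXB/BXA and CXB the widest gaps (0.25 and 0.94) each set off 1 strain, AXB6/PgnJ and CXB7/ByJ, whose single library stands apart. Without it the gaps were 0.12 and 0.13. In BXH the widest gap was 0.22.

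Families differed in how many strains reached the C57BL/6J level of 8.41. At or below it were 7 of 26 RwwJ strains, 4 of 19 TyJ strains, 0 of 20 AXB/BXA strains, 1 of 6 CXB strains (CXB7/ByJ) and 0 of 6 BXH strains. Without the libraries that stand apart they were 5 of 25 RwwJ and 0 of 5 CXB strains, and the other families kept their counts. The lowest AXB/BXA strain lay at 9.01, or at 9.26 without the library that stands apart, close to the A/J parent (9.47). All 6 BXH strains, from 8.86 to 9.64, lay above both parents, C57BL/6J and C3H/HeJ (8.77). In the TyJ set 14 of 19 strains lay above both parents, and in the RwwJ set 9 of 26 did. The share of strains between the parents was thus 1 of 19 in the TyJ set and 10 of 26 in the RwwJ set, or 0 of 19 and 11 of 25 without the libraries that stand apart.

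Genes beside Nnt were read as a description of the region. Of 10 tested genes within 2 Mb, 4833420G17Rik (chr13:119462768-119486120, plus strand) and Zfp131, a zinc finger gene, were singled out after their values were seen. Their levels set C57BL/6J apart from DBA/2J and C3H/HeJ but not from A/J or BALB/cJ, an order other than that of Nnt. 4833420G17Rik was at 3.90 log2 CPM in C57BL/6J, 3.84 in A/J and 3.89 in BALB/cJ, but at 2.37 in DBA/2J and 2.49 in C3H/HeJ. It was higher in C57BL/6J than in DBA/2J by 1.55 (SE 0.12, adjusted p = 5.1e-05) and than in C3H/HeJ by 1.42 (SE 0.12, adjusted p = 7.5e-05).

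Without the libraries that stand apart, strain means of 4833420G17Rik in the RwwJ set lay at 2.44 to 2.78 in 12 strains and at 3.58 to 3.85 in 13, with none between. Nnt ran from 8.52 to 9.12 in the first strains and from 8.13 to 8.91 in the second, where 12 of 13 lay at or below 8.68. ENSMUSG00000116207 alone ran from 7.60 to 8.34 in the first strains and from 6.84 to 8.29 in the second. Among the second, BXD66/RwwJ was highest and BXD48/RwwJ next, at 7.55. In the TyJ set 10 strains had the neighbour at 2.29 to 3.07, with Nnt from 8.81 to 9.20. The other 9 had the neighbour at 3.49 to 3.93, and Nnt there fell into separate levels: 8.26 to 8.37 in BXD34, BXD40, BXD38 and BXD20, and 9.28 to 9.50 in BXD19, BXD27, BXD21, BXD14 and BXD15. The gap between them was 0.92. The first 4 lay near C57BL/6J (8.41), and the other 5 near BALB/cJ (9.39) and A/J (9.47).

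In BXH, 4 strains had the neighbour at 2.22 to 2.58 and Nnt at 8.86 to 9.28, and BXH6 and BXH9 had it at 3.61 to 3.71 and Nnt at 9.45 to 9.64. No BXH strain joined a high neighbour with an Nnt level near C57BL/6J. In AXB/BXA and CXB, whose parents did not differ in the neighbour, all strains lay at 3.68 to 3.99 and had Nnt at or above 9.26. Zfp131 placed all but BXD74/RwwJ and BXD24/TyJ-Cep290<rd16>/J on the same sides in the BXD sets. Groups drawn from a measured level allow no test, and no genotype was read here, so which allele of Nnt each strain carries was not tested.

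**Figure D2:**
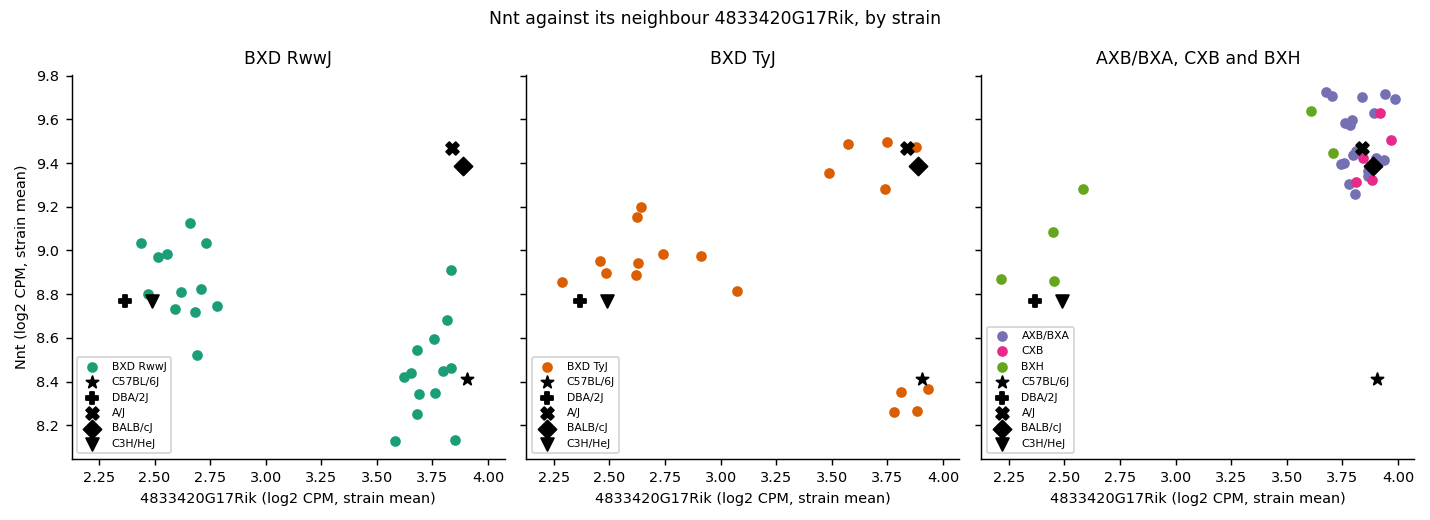
Strain mean of Nnt (log2 CPM, vertical axis) against that of its neighbour 4833420G17Rik (log2 CPM, horizontal axis), without the libraries that stand apart, for BXD RwwJ, BXD TyJ, and AXB/BXA with CXB and BXH; coloured points are strains and black symbols the 5 parents. At neighbour levels above 3.4, RwwJ strains hold Nnt at 8.13 to 8.91, TyJ strains split into 4 at 8.26 to 8.37 and 5 at 9.28 to 9.50, and strains of the other families lie at or above 9.26.

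Set against each other as whole sets, with counts summed per strain, RwwJ strains had less Nnt than TyJ strains by a log2 difference of -0.36 (SE 0.10, unadjusted p = 0.0012, adjusted p = 0.39), which did not pass. In that comparison 0.0174% of 17214 genes were called and no member was. RwwJ libraries also carried higher numbers in their titles (median 1017.5, against 556 in the TyJ set). The labels do not say what this number marks. With that number as a covariate, added after seeing the data, the difference was -0.45 (SE 0.14, adjusted p = 0.76). The difference between the sets did not depend detectably on sex (interaction -0.02, SE 0.20, adjusted p = 1.0), and in edgeR 0.0% of genes passed that test after adjustment, with 191 of 15794 at an unadjusted p under 0.05.

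A strain's Nnt level repeated in its other sex. Over 78 strains the male and female levels had r = 0.77 (permutation p = 1e-05, the smallest the permutations can give, adjusted p = 2.2e-05) and rho = 0.85 (permutation p = 1e-05). Leaving out the 2 strains farthest from the male median gave r = 0.76, and without the libraries that stand apart r was 0.87 over 75 strains. Of the 11 relations computed, Me3 had r = 0.58, which fell to 0.34 without 2 strains, Prdx3 0.54, Idh2 0.48 and Sod2 0.42, all past an adjusted permutation p of 0.05. Gpx4 (r = 0.08, permutation p = 0.45) and Txn2 (r = 0.12, permutation p = 0.26) did not repeat detectably over all strains, with r = 0.19 (permutation p = 0.096) and 0.18 without the libraries that stand apart. Within AXB/BXA, however, Gpx4 (r = 0.81, adjusted permutation p = 0.012) and Txn2 (0.76, 0.024) passed, as did Prdx3 and Sod2. Those values fell to 0.45 for Gpx4 and 0.12 for Txn2 without 2 strains. Their rho there did not pass (adjusted permutation p = 0.064 and 0.10). Within families Nnt had r = 0.68 (adjusted permutation p = 0.004) over 19 other inbred strains, 0.50 (0.073) in the RwwJ set, 0.72 (0.15) in the TyJ set and 0.37 (0.23) in AXB/BXA. By rho the RwwJ set passed as well (0.58, adjusted permutation p = 0.012), beside the other inbred strains (0.86, 0.00033). The TyJ set (0.72, 0.26) and AXB/BXA (0.38, 0.26) did not. Values for the RwwJ, TyJ and other inbred strains include libraries that stand apart and were not computed without them.

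**Figure D3:**
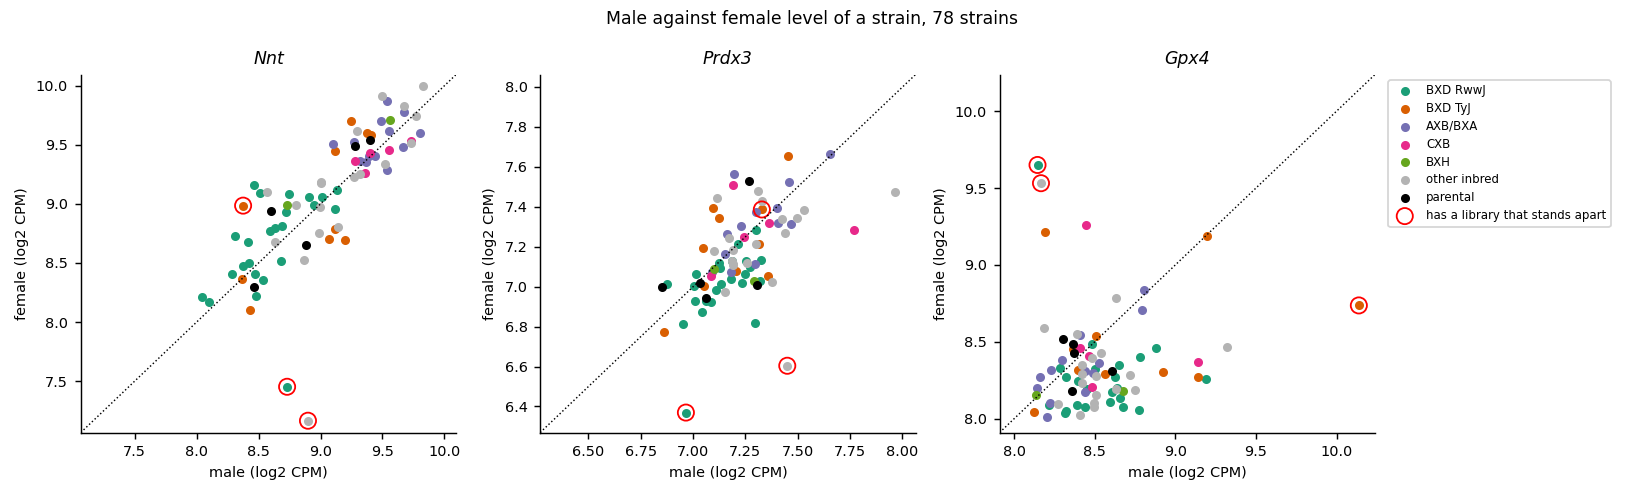
Male (horizontal axis) against female (vertical axis) level in log2 CPM for Nnt, Prdx3 and Gpx4 in the 78 strains with both sexes; 1 point is 1 strain, coloured by family, the dotted line marks equal levels, and rings mark strains with a library that stands apart. Nnt points follow the line (r = 0.77) apart from 2 ringed strains, and Gpx4 points do not (r = 0.08).

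Between the sexes Nnt did not differ detectably. Males had 551 ± 165.3 CPM (SD, n = 98) and females 570.1 ± 194 (SD, n = 89), a log2 difference of -0.05 (SE 0.07, adjusted p = 0.65), and in 31 of 78 strains the male held more Nnt than the female. Of the 9 members 5 were called, all higher in males, beside 13.3% of genes called higher, 12.1% called lower and 25.4% in either direction. Gpx4 differed by 0.20 (SE 0.05, adjusted p = 0.0021) and Sod2, superoxide dismutase of the matrix, by 0.11 (SE 0.02, adjusted p = 0.00011). The male exceeded the female in 56 of 78 strains for Gpx4 and in 55 for Sod2. Smaller differences of 0.08 (Prdx3, adjusted p = 0.037), 0.08 (Me3, adjusted p = 0.020) and 0.07 (Glud1, adjusted p = 0.0052) turned to between -0.0012 and -0.0097 when libraries were scaled by totals, and to between -0.036 and -0.072 in TPM. Gpx4 was at 0.05 (adjusted p = 0.38) in TPM and Sod2 at 0.03 (adjusted p = 0.34) with totals. Prdx3 and Me3 no longer passed with the length trend as covariate (0.06 for both, adjusted p = 0.12 and 0.059), nor did Prdx3 without the libraries that stand apart (0.07, adjusted p = 0.084). Males also had lower Cfd and Retn, 2 of 5 adipose markers tested, and lower Col1a1 and Pdgfra, 2 of 4 fibroblast markers. The test called 3 of 5 skeletal muscle markers (2 higher and 1 lower in males), 2 of 7 cardiomyocyte markers (1 higher, 1 lower) and 1 of 5 blood markers, Hbb-bs (higher). The part of these in the sex differences was not tested.

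Among pathway lists, males were higher in 4 of 5 NAD-linked counterparts (the Idh3 subunits and Mdh2), in 5 of 13 genes of mitochondrial defence, in 5 of 11 cytosolic antioxidants, in 4 of 10 genes of glutathione synthesis and Nrf2 targets, and in 1 of 7 cytosolic NADPH sources (Me1), with none lower. Of 8 mitochondrial NADPH sources 2 were higher (Me3, Glud1) and 2 lower (Mthfd2, Mthfd2l, of the folate pathway). These counts stand beside 13.3% of all genes called higher and 12.1% called lower, and they depended on the scaling. With library totals the counts higher became 0 of 5 NAD-linked counterparts, 1 of 13 genes of mitochondrial defence (with 1 lower), 1 of 11 cytosolic antioxidants (3 lower), 0 of 10 genes of glutathione synthesis and Nrf2 targets (4 lower), and 0 of 7 and 0 of 8 cytosolic and mitochondrial NADPH sources. In TPM 1 of 13 genes of mitochondrial defence was higher and 3 were lower, 4 of 11 cytosolic antioxidants and 4 of 10 genes of glutathione synthesis and Nrf2 targets were lower, and no gene of the other lists was higher.

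Gpx4 and Txn2, both short transcripts, moved with the length trend of the library. Gpx4 ranged from 258 to 1127 CPM. The libraries that stand apart held ranks 1 to 5 and 9 from the highest of its values. As a description over all libraries, which share their scaling, the Spearman rho of level with the length trend was -0.77 for Gpx4 and -0.78 for Txn2. It was -0.53 for Txnrd2, between -0.33 and -0.43 for Me3, Idh2, Prdx3 and Sod2, -0.04 for Glud1 and -0.002 for Nnt. The Nnt identifiers went opposite ways, with 0.20 for ENSMUSG00000025453 and -0.20 for ENSMUSG00000116207. A rho over all libraries says little about the libraries that stand apart. They held Nnt at 9.01 log2 CPM in the AXB6/PgnJ male and at 7.165 to 8.38 in the others, against a median strain mean of 9.09. The RIIIS/J and BXD73/RwwJ females held the lowest Nnt of all libraries. Glud1 and Gpx4 have near-identical pseudogenes, so their counts are uncertain to the extent that reads were shared.

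**Figure D4:**
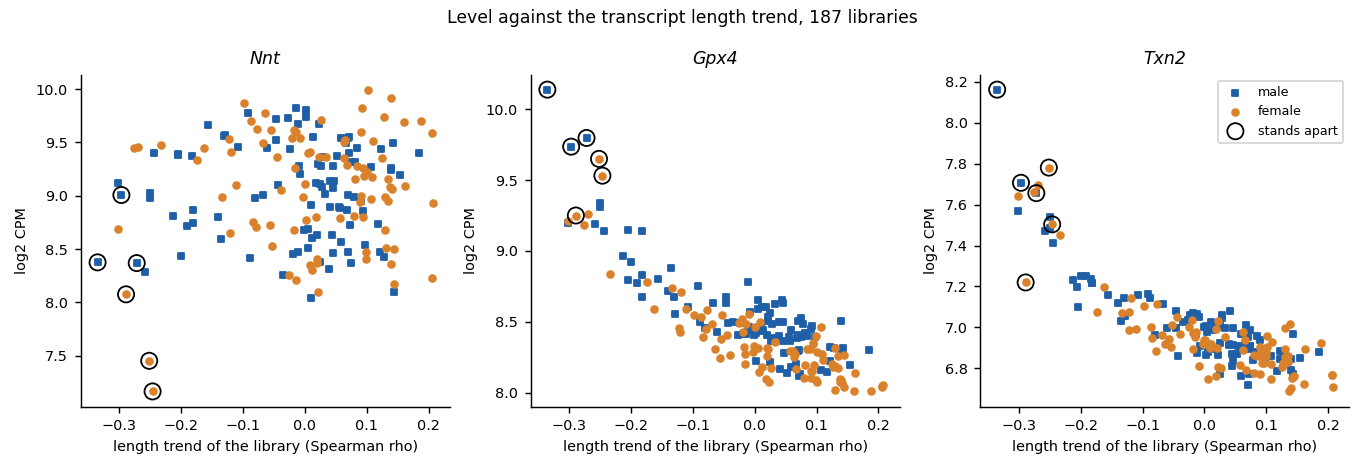
Level (log2 CPM, vertical axis) of Nnt, Gpx4 and Txn2 against the length trend of the library (horizontal axis, Spearman rho over 15706 genes of the deviation from the median profile with transcript length; negative where short transcripts are raised) in each library, squares male, circles female, rings marking the 6 that stand apart. Gpx4 and Txn2 fall along the axis (rho -0.77 and -0.78) and Nnt over all libraries does not (rho -0.002). The ringed Nnt points other than the AXB6/PgnJ male (9.01) lie low, at 7.165 to 8.38.

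Over the whole panel 1 of the 8 other members, Prdx3, passed the threshold for a relation with Nnt. The share of all genes that would pass was not counted. Strain means of Nnt and Prdx3 over all strains had r = 0.45 (permutation p = 1e-05, the smallest the permutations can give, adjusted p = 8e-05 over 8 relations) and rho = 0.47, and r = 0.43 without the 2 strains farthest from the Nnt median. Without the libraries that stand apart r was 0.40 and rho 0.43. The permutations shuffled all strains freely, but strains of a family share ancestry, so the p over all strains is a description. Among families and other inbred strains, AXB/BXA had the highest median of both genes (Nnt 9.45, Prdx3 7.37 log2 CPM). The RwwJ set had the lowest (8.57 and 7.09), so the relation over all strains includes differences between families. Within families this relation was weak: r was 0.19 (permutation p = 0.37) in the RwwJ set, 0.002 (permutation p = 0.99) in the TyJ set, -0.22 (permutation p = 0.34) in AXB/BXA and 0.21 (permutation p = 0.32) in other inbred strains. Idh2 (r = -0.04), Me3 (-0.07), Sod2 (0.08) and Txn2 (-0.10) showed no relation past the threshold over all strains. Glud1 had r = 0.55 (adjusted permutation p = 0.023) in the RwwJ set, and 0.38 without the 2 farthest strains. Its rho there was 0.45 (adjusted permutation p = 0.19), which did not pass. The 2 RwwJ strains lowest in Glud1, BXD51 and BXD73, each have a library that stands apart. Within this set the relation was not computed without those libraries.

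Of 15940 genes ranked by Spearman rho of their strain means with Nnt over all strains, Ghitm, which encodes a protein of the inner mitochondrial membrane, came first (0.67). It was followed by Lgalsl (0.66), Zfp655 (0.65), Serinc1 (0.62), Lamp2 of the lysosomal membrane (0.61), Corin, the protease that activates natriuretic peptide (0.59), Cdh2 or N-cadherin (0.59), Fbxo30 (0.58), Camk2d, the main cardiac calmodulin-dependent kinase (0.57), and Wdfy1 (0.57). The lowest were Zfp772 (-0.62), Arsa, a lysosomal sulphatase (-0.60), Gm45844 (-0.58), Mtmr11 (-0.58) and Tgfb1i1 (-0.57). The median over all genes was -0.01, 55 genes lay above 0.5, and Prdx3, the most alike of the members, had 0.47. Strains of a family share ancestry, so these values are descriptions.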

How the data were processed

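Heart mRNA libraries were sequenced by the authors as paired reads of 50 bases and quantified with kallisto (0.46) against GRCm38.p6; the authors deposited estimated counts and TPM per Ensembl gene. TPM depends on the total of all genes, mitochondrial ones included. Symbols came from GENCODE M21 (35856 of 36558 identifiers; the rest held 0.486% of counts).

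Sex and strain came from the labels. Estimated counts were rounded, filtered with filterByExpr, TMM scaled and tested with edgeR 4.0.16 (quasi-likelihood) over all genes, with a Benjamini-Hochberg adjusted p of 0.05; Nnt identifiers were summed before rounding. Strain effects used strain and sex as terms, parental contrasts the 5 parents, and the sex comparison no covariate. Levels are log2 CPM with a prior count of 2. Alternatives were RLE factors, library totals, no count filter, DESeq2 1.42.0 and limma 3.58.1 on log2(TPM + 1) and log2(TPM + 0.1). Libraries stood apart when their correlation with the median profile lay over 3 quartile ranges below the lower quartile; leaving these out, the length trend and the title number as covariates were added after seeing the data. Permutation tests were two-sided with 100000 draws.

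Genes named are the members, list genes called in C57BL/6J against the panel or between BXD sets, tested genes within 2 Mb of Nnt, and the 10 most and 5 least alike. Members and lists were chosen with earlier results of these data known. Each script with a test across genes was tested on simulated data with log2 changes of 0.6 and 1.2. For C57BL/6J minus DBA/2J it recovered 4% and 44% of them (2 false calls). Against the panel it recovered 52% and 100% (17 false calls among 2000 genes), and between the sexes 100% of both (16 false calls). Small parental differences could thus be missed.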

Additional observations from a re-analysis of the deposited data

How the results depend on the processing

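Of 719 values recomputed under alternatives, 568 kept direction and side of the threshold, 73 lost and 21 gained it, 39 moved and 18 reversed; causes were not tested. The lower Nnt in C57BL/6J kept its call in all 10 alternatives against the panel (-0.59 to -0.75) and in all 12 against A/J (-0.95 to -1.33) and BALB/cJ (-0.86 to -1.17). Nnt had at least 7513 counts in every library, so counting error was small beside the spread between mice.

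Against DBA/2J Nnt passed with library totals (-0.64), log2(TPM + 1) (-0.75) and log2(TPM + 0.1) (-0.76), and against C3H/HeJ likewise (-0.60, -0.70, -0.71). Other members called, 0 as reported, were then 3, 3 and 3 for DBA/2J, 2, 4 and 4 for A/J, and 1, 5 and 5 for C3H/HeJ, beside 26.1, 34.2 and 34.7% of all genes called for DBA/2J, 12.95, 16.9 and 17.98% for A/J, and 18.1, 25.2 and 26.1% for C3H/HeJ; DESeq2 called 1 for DBA/2J and 1 for BALB/cJ, and leaving out single libraries gave 0 to 1 for DBA/2J. ENSMUSG00000025453 reversed against DBA/2J (leave-one-out -0.56 to 0.19, with 0.056 without the C57BL/6J female and 0.19 without the DBA/2J female) and C3H/HeJ (totals -0.13, TPM -0.20 and -0.21, leave-one-out -0.090 to 0.43, the lowest without the C3H/HeJ female).

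For strain effects on Nnt, totals and TPM gave F 2.09, 1.67 and 1.67 in the RwwJ set and 4.68, 4.43 and 4.46 in the TyJ set (5.47 with no count filter), no longer past the threshold, and 3.21, 3.603 and 3.611 in AXB/BXA, now past it; in BXH totals (40.2) and log2(TPM + 0.1) (25.5) passed. Other members called became 1, 2 and 2 in RwwJ (2 with the length trend, 2 without the libraries that stand apart), 2 (totals) and 3 (log2(TPM + 0.1)) in AXB/BXA (1 with the length trend) and 0 in CXB.

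For sex, members called fell from 5 to 1 (totals), 2 and 2 (TPM), 3 (length trend) and 3 (title number). Reversed values were Me3 (-0.0097, -0.053, -0.054), Glud1 (-0.0090, -0.070, -0.072) and Prdx3 (-0.0012, -0.0356, -0.0359) under totals, log2(TPM + 1) and log2(TPM + 0.1). With strain as a replicate block, pairing the sexes, Nnt differed by -0.03 (adjusted p = 0.59), the BXD interaction was -0.05, and no member's call changed. The interaction of ENSMUSG00000116207 reversed to -0.0029 without the libraries that stand apart. Male to female r turned to -0.044 (Txn2) and -0.0053 (Gpx4) without 2 strains.

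The widest Nnt gap moved in RwwJ to 0.84 (ENSMUSG00000116207) and 0.62 (females), in AXB/BXA to 0.70 (TPM) and 0.091 (females), in CXB to 0.23 and 2.34 (single identifiers), 0.84 (TPM), 0.11 (females) and 0.13 (without CXB7/ByJ), and in BXH to 0.43 (ENSMUSG00000025453) and 0.43 (females).

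Counts of genes called over all genes moved by over 1.5 times as follows. Under totals, log2(TPM + 1) and log2(TPM + 0.1) they rose from 1855 to 4477, 5872 and 5948 (C57BL/6J against DBA/2J), from 1406 to 2223, 2899 and 3085 (A/J) and from 1631 to 3105, 4321 and 4478 (C3H/HeJ), and fell from 536 to 215, 225 and 225 (CXB). TPM alone moved the sex count from 4042 to 7081 and 6930 and that of TyJ from 940 to 595 and 608. Leaving out 1 library gave at least 741 for DBA/2J (without its male), 473 for A/J (without its female), 642 of 1605 for BALB/cJ, 670 for C3H/HeJ (without its female) and 567 of 1031 against the panel (without the C57BL/6J female). The length trend moved RwwJ from 3105 to 4868 and AXB/BXA from 5413 to 3424, no count filter moved BXH from 1.91% to 0.566% of genes tested, and the difference between BXD sets had 3 calls, 0 (males only and females only) to 20 under alternatives.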
